A study of Mus musculus with 48 samples.

Results

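Apolipoproteins are the protein components of the particles that carry triglyceride and cholesterol through the blood. The 10 members examined here, Apoa1, Apoa2, Apoa4, Apoa5, Apob, Apoc1, Apoc2, Apoc3, Apoe and Apom, were found among 55416 annotated genes by the Ensembl identifier of each mouse symbol; the rule uses no measured value, though the family was chosen with earlier results of these data known. They were followed in 48 bulk livers from 2 mouse studies of the oxysterol receptor LXRα, which is encoded by Nr1h3. In the knock-in study male mice carried the dominant-negative W441R substitution, made by CRISPR-Cas9 from a single founder, on a C57BL/6J background. In the knockout study mice lacked LXRα. That line was originally mixed Sv129 and C57BL/6 and had been backcrossed to C57BL/6 for more than 10 generations. Each study held wild-type (DN:WT, KO:WT), heterozygous (DN:HET, KO:HET) and homozygous (DN:HOM, KO:HOM) mice bred from heterozygous parents, with 8 labelled livers in each of the 6 groups. Every mouse, wild-type controls included, was fed a Western diet for 8 weeks from 8 to 16 weeks of age. Neither allele is restricted to a cell type, so a liver measures hepatocytes and all other cells together, and fewer cells of a type cannot be told apart from less RNA per cell.

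The liver makes most circulating apolipoproteins. Apob forms the backbone of very low density lipoprotein, Apoa1 and Apoa2 are the main proteins of high density lipoprotein, and the Apoc genes, Apoa5 and Apoe set how fast a particle is lipolysed and taken up. LXRα, activated by oxysterols, binds DNA as a partner of RXR and induces genes of sterol efflux and fatty acid synthesis. Apoe and its cluster neighbours Apoc1 and Apoc2 are known LXR targets in macrophages, where distal enhancers drive them.

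Between 5332897 and 16961379 reads per liver fell on annotated genes, and 2 livers, KO:HET animal 3 and KO:HOM animal 17, had fewer than 10000000. Nr1h3 itself stood at 93.6 ± 8.82 CPM (counts scaled to 1000000 per liver; SD, n = 8) in KO:WT, 59.2 ± 5.63 in KO:HET and 27 ± 1.99 in KO:HOM, and at 91.8 ± 5.04 (n = 7) in DN:WT and 72.8 ± 3.56 (n = 7) in DN:HOM. The livers labelled DN:WT animal 10 and DN:HOM animal 12 went against their labels for most members. Apoa2, for example, was 2258 CPM in the former against 5595 to 8531 in the other DN:WT livers, and 6306 CPM in the latter against 1765 to 2767 in the other DN:HOM livers. Those 2 livers are not in the per-animal source data of the study, so the fits use 46 livers, and the result over all 48 labelled livers is given beside the change of each member in DN:HOM. No liver was moved to another group.

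On the mouse genome build GRCm39, 7 of the members lie in 2 clusters. Apoa1 (ENSMUSG00000032083), Apoc3 (ENSMUSG00000032081), Apoa4 (ENSMUSG00000032080) and Apoa5 (ENSMUSG00000032079) lie on chromosome 9, with Apoa1 starting at 46139878 and Apoa5 ending at 46183217. Apoc2 (ENSMUSG00000002992), Apoc1 (ENSMUSG00000040564) and Apoe (ENSMUSG00000002985) lie on chromosome 7 between 19405504 and 19434947. Apoa2 (ENSMUSG00000005681, from 171049125 to 171053948), Apob (ENSMUSG00000020609, from 8027648 to 8066835) and Apom (ENSMUSG00000024391, from 35347973 to 35351026) stand alone on chromosomes 1, 12 and 17.

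The 250 bases before the annotated start were read from RefSeq promoters of build GRCm38.p6, which hold 8 of the 10 members. They are shown for the member that fell furthest in DN:HOM (Apoa4), for a cluster neighbour whose knock-in and knockout effects differed (Apoa5; Apoc3, whose effects differed too, has no entry), and for the member that rose (Apom). Capitals mark any match to the motifs searched on both strands.
Apoa4, chr9:46240594-46240843, plus strand: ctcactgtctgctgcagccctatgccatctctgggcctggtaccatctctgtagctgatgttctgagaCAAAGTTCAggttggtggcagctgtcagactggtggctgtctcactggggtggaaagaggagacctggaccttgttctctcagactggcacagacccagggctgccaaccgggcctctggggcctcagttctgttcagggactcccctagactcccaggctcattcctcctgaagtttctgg
Apoa5, chr9:46268358-46268607, plus strand: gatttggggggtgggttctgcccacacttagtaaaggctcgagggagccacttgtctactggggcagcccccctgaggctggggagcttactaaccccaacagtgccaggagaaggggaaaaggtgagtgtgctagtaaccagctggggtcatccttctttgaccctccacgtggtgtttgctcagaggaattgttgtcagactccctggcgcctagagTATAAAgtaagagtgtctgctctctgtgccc
Apom, chr17:35131802-35132051, minus strand: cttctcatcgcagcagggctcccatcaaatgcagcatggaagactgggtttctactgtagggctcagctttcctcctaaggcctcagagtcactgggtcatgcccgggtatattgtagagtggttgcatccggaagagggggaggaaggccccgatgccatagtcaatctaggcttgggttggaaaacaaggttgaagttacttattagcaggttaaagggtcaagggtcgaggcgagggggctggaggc
The Apoa4 window holds CAAAGTTCA, a spelling of the HNF4 site, beginning 182 bases before the start, and 0.335% of 32851 promoters hold that spelling. This spelling was added after the Apoa4 window had been read, and the other spelling, CAAAGTCCA, is in 0.384% of promoters and in none of the members' windows. The Apoa5 window holds the TATA sequence TATAAA beginning 31 bases before the start, as 12.4% of promoters do somewhere in theirs. The nuclear receptor hexamer AGGTCA is in 14% of promoters; among the members it is in a window of Apoa2 (238 bases before the start) and that of Apoc2 (115 bases before), neither printed here. A direct repeat of that hexamer with 4 bases between its copies, the arrangement LXR prefers, is in 5 of the 32851 promoters and in no member's window.

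Levels between genes can be compared only per length, here as CPM per kilobase of the Ensembl canonical transcript. In DN:WT the highest were Apoa2 at 12625 ± 2014 (SD, n = 7) and Apoe at 12533 ± 1330, which did not differ beyond their spread. Apoa1 followed at 5040 ± 709, Apoc1 at 3591 ± 454 and Apoa4 at 1291 ± 662, then Apoc3 at 701 ± 85.3. Apoa5 at 390 ± 62.3 and Apob at 375 ± 47.9 overlapped, and Apom followed at 65.8 ± 9.86. Apoc2 stood at 6.75 ± 3.24, a value with no place in the order, since 646 of its exonic bases are shared with another gene of the same strand. In DN:HOM Apoe came first at 6675 ± 422, Apoa2 second at 4402 ± 690, and Apoa4 at 225 ± 29.5 fell behind Apoc3 (310 ± 35.8) and Apob (293 ± 27.2), while Apoa5 at 240 ± 30.8 did not differ from it beyond the spread. The place of Apoa2 depends on the length used: over all 4350 exonic bases of the gene, in place of the 518 of its canonical transcript, it stood at 1503 ± 240 in DN:WT and 524 ± 82.1 in DN:HOM, against 6752 ± 717 and 3596 ± 227 for Apoe, which then came first in both groups. On that scale, added after the levels were seen, Apoc3 in DN:HOM (239 ± 27.6) did not differ from Apoa4 beyond the spread. The 10 members together took 5.37 ± 0.487% of reads on genes in DN:WT, 5.01 ± 0.670% in DN:HET and 3.84 ± 0.178% in DN:HOM (n = 7, 8 and 7). Over all 8 labelled livers a group, DN:WT had 5.11 ± 0.854% and DN:HOM 4 ± 0.472%, with overlapping ranges of 3.32% to 6.36% and 3.48% to 5.09%. In the knockout study the shares were 4.13 ± 0.982%, 4.64 ± 0.593% and 4.15 ± 0.480% in KO:WT, KO:HET and KO:HOM (n = 8 each), and these overlapped.

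**Figure D1:**
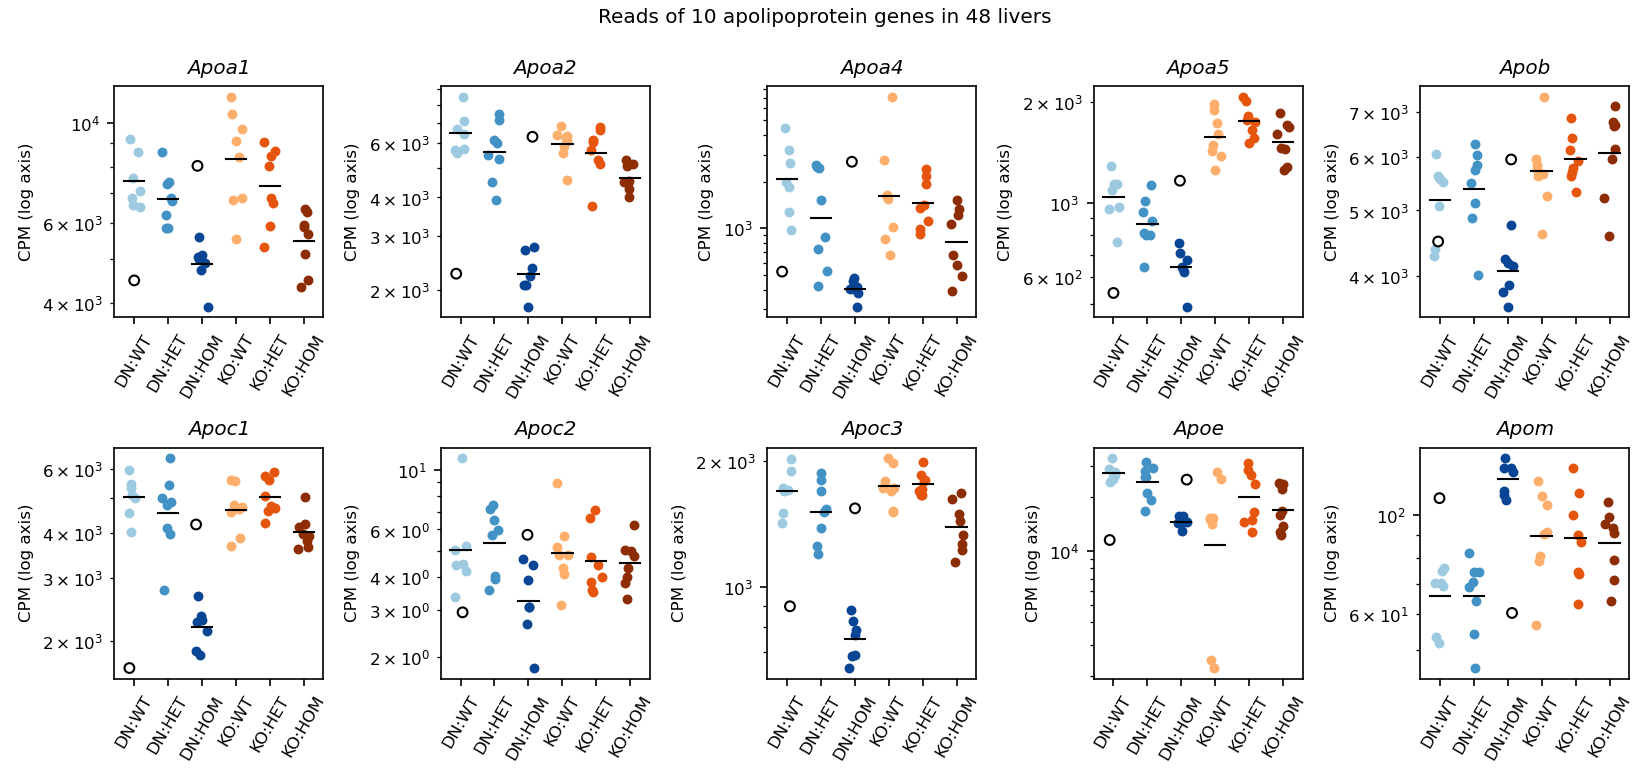
Reads of each apolipoprotein gene in CPM (log axis) for the 48 livers by group. Each point is a liver, the bar is the geometric mean of the livers used in the fit, and the open circles are DN:WT animal 10 and DN:HOM animal 12, which lie outside the filled points of their own groups for Apoa2 (2258 and 6306 CPM).

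The first question was how homozygous expression of the dominant-negative receptor changed the members. In DN:HOM against DN:WT, 9 of 10 members fell and Apom rose (edgeR quasi-likelihood test, Benjamini-Hochberg adjusted p under 0.05 over 15711 genes). This contrast called 59.1% of all genes tested, 30% lower and 29.1% higher. The median change of the members was -0.79 on the log2 scale, against -0.012 for all genes. Over all 48 livers 8 members passed, 7 lower and 1 higher, when 48% of genes did; Apoc2 and Apoe did not. Scaled by library size alone 6 passed, and Apoa1 (-0.17), Apob, Apoc2 (-0.24) and Apoe (-0.47) did not. For 8 of the called members the DN:HOM and DN:WT livers did not overlap, as for 33.4% of all genes; with DN:WT animal 10 and DN:HOM animal 12 included 0 of the members had groups without overlap. The statements on overlap that follow are of the 7 DN:HOM and 7 DN:WT livers of the fit.

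Apoa4, an intestinal and hepatic apolipoprotein of high density lipoprotein and chylomicrons, fell furthest. Its levels were 312, 380, 403, 407, 419, 455 and 478 CPM in DN:HOM, against 977 to 4445 in the 7 DN:WT livers with a median of 1990. All 7 homozygous livers lay below all 7 wild-type livers. The log2 fold change was -2.51 ± 0.43 (SE; adjusted p = 3e-06), a 5.7-fold fall, and -1.61 ± 0.47 (adjusted p = 0.005) over 48 livers. Apoa4 shares 632 exonic bases with Gm10680 and 634 with Gm47528, both antisense; the separately counted reads of Gm10680 came to 16% to 20.8% of the Apoa4 count in each liver, and Gm10680 changed by -2.52 ± 0.43 (-1.63 ± 0.47 over 48 livers).

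Apoa2, the second protein of high density lipoprotein, had 1765 to 2767 CPM in DN:HOM and 5595 to 8531 in DN:WT, with no overlap, a change of -1.51 ± 0.12 (adjusted p = 9.9e-14; -1.11 ± 0.19 over 48 livers). Apoa1, its major protein, had 3919 to 5598 CPM in DN:HOM and 6505 to 9190 in DN:WT, again without overlap, and changed by -0.60 ± 0.13 (adjusted p = 0.00013; -0.42 ± 0.14 over 48 livers). The 95% intervals of the change were -1.76 to -1.25 for Apoa2 and -0.86 to -0.33 for Apoa1, and the difference between the genes was not tested. Apoa5, an activator of lipolysis by lipoprotein lipase, ran from 491 to 757 CPM in DN:HOM and from 765 to 1288 in DN:WT, a change of -0.68 ± 0.11 (adjusted p = 1.6e-06; -0.47 ± 0.14 over 48 livers).

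Among the inhibitors of lipolysis and uptake, Apoc3 was 640 to 880 CPM in DN:HOM and 1418 to 2021 in DN:WT, a change of -1.17 ± 0.10 (adjusted p = 6.7e-14; -0.92 ± 0.13 over 48 livers). Apoc1 was 1828 to 2675 against 4011 to 5975 CPM, a change of -1.19 ± 0.12 (adjusted p = 2.1e-11; -0.92 ± 0.16 over 48 livers). In neither gene did the groups overlap. Apoc2, the cofactor of lipoprotein lipase, is uncertain. Its reads were 20 to 157 per liver, and it shares 646 exonic bases on the same strand with Apoc2l, for which no reads were counted in any liver; how far the overlap lowers the count was not tested. Its fall of 0.66 on the log2 scale (adjusted p = 0.011) became -0.40 (adjusted p = 0.10) without DN:WT animal 5, which stood at 11.1 CPM against 3.36 to 5.22 in the other 6 DN:WT livers of the fit, and -0.47 (adjusted p = 0.078) over 48 livers.

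Apoe, the ligand by which remnants are taken up, had 12917 to 15636 CPM in DN:HOM and 24328 to 33040 in DN:WT, with no overlap. Its change was -0.90 ± 0.30 (adjusted p = 0.01) in the shared fit, -0.68 ± 0.30 (adjusted p = 0.056) over 48 livers, and -0.86 ± 0.12 (adjusted p = 1.4e-06) when the knock-in study was fitted alone. The wide error of the shared fit comes with the spread of Apoe in the knockout study, described further on. Apob, the one member for which scaling reversed the sign, had 3601 to 4766 CPM in DN:HOM and 4286 to 6068 in DN:WT, and these ranges overlapped. It changed by -0.34 ± 0.10 (adjusted p = 0.0027; -0.25 ± 0.10 over 48 livers), and by 0.09 (adjusted p = 0.38) when library size alone set the scale. That scaling moves the median of all genes by 0.43 in this contrast, and Apob relative to that median was -0.33.

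Apom, which carries sphingosine-1-phosphate on high density lipoprotein, went the other way. Its levels were 108, 111, 113, 125, 127, 127 and 134 CPM in DN:HOM and 51.7 to 76.1 CPM in DN:WT, so the groups did not overlap. It rose by 0.87 ± 0.14 (adjusted p = 8.8e-07), and by 0.66 ± 0.15 (adjusted p = 0.00069) over 48 livers.

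**Figure D2:**
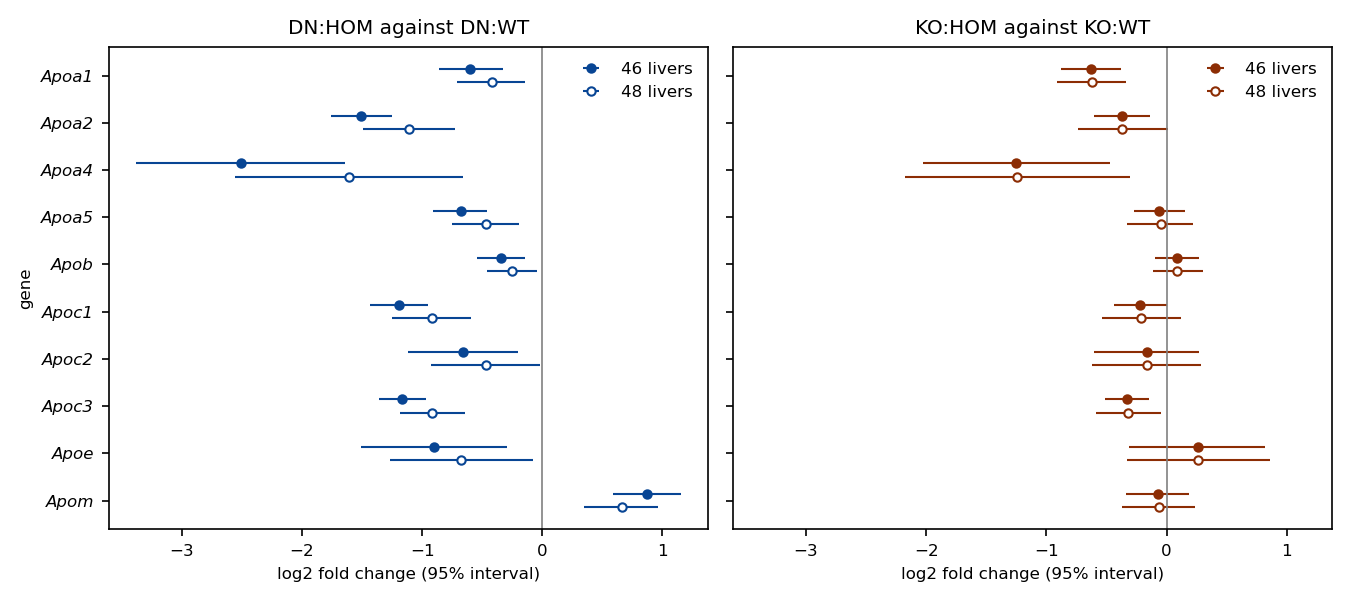
Change of each member in homozygous against wild-type livers (log2 fold change, bars are 95% intervals) in the knock-in study (left) and the knockout study (right). Filled points are the 46 livers of the fit and open points all 48, where Apoa4 in DN:HOM is at -2.51 and -1.61.

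Markers of liver cell types also differed between these groups. The summed level of 9 hepatocyte markers was 65011 to 78921 CPM in DN:WT and 43137 to 49520 in DN:HOM. Most of that difference is Alb: without it the other 8 summed to 24293 to 26182 CPM in DN:WT and 22023 to 24699 in DN:HOM, which overlap. Of the 9, 5 fell, Hpx, an acute-phase heme carrier, rose by 1.40 ± 0.17, and Ahsg (0.20 ± 0.12), Fgb (0.07 ± 0.12) and Serpina1a (-0.21 ± 0.12) were not called. Alb changed by -1.14 ± 0.13 (adjusted p = 1.9e-10; -0.81 ± 0.17 over 48 livers), close in size to Apoc3. The 12 macrophage markers summed to 196 to 371 CPM in DN:WT and 1696 to 2480 in DN:HOM, and the 6 cholangiocyte markers to 30.3 to 70.8 and 723 to 1070. Spp1, which rose by 4.57 on the log2 scale, is in both lists, so the sums and counts of both include it. Clec4f, which defines resident Kupffer cells, was 60.3 to 108 CPM in DN:WT and 0.192 to 0.632 in DN:HOM (-7.74 ± 0.41, and -3.23 ± 0.75 over 48 livers). These ranges are of the livers of the fit, and all of them overlapped once DN:WT animal 10 and DN:HOM animal 12 were included. Those livers had, in that order, 53285 and 82432 CPM of hepatocyte, 2710 and 223 of macrophage and 1162 and 43.4 of cholangiocyte markers, and Clec4f then ran from 0.202 to 108 CPM in DN:WT and from 0.192 to 62.1 in DN:HOM. Of the macrophage markers 8 rose and 3 fell, of 8 stellate cell markers 7 rose, all 6 cholangiocyte markers rose, of 6 endothelial markers 1 rose and 4 fell, and of 8 lymphocyte markers 4 rose. Over 48 livers 0 of the 8 lymphocyte markers passed in edgeR, with 2 at an unadjusted p under 0.05, 5 of the hepatocyte markers fell and 1 rose, 7 of the macrophage markers rose and 3 fell, 7 stellate cell and 6 cholangiocyte markers rose, and 4 endothelial markers fell and 0 rose. The part of these shifts in the changes of the members was not tested.

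One copy of either allele did not move the members past the threshold. In DN:HET against DN:WT, 0 of 10 members passed in edgeR, with 1 at an unadjusted p under 0.05 (Apoa5, -0.26 ± 0.11) and likewise 0 in DESeq2, while 2.3% of all genes passed (0.25% over 48 livers). The confidence intervals allow a fall in DN:HET of up to 0.42 on the log2 scale for Apoa2 and up to 1.49 for Apoa4. The DN:HET livers varied widely in Apoa4, at 423, 532, 733, 880, 1518, 2463, 2483 and 2571 CPM, and the lowest lies within the 312 to 478 of DN:HOM. In KO:HET against KO:WT, 0 of 10 members passed in edgeR and in DESeq2, none at an unadjusted p under 0.05, and 0.0191% of all genes did. Against the heterozygotes, DN:HOM showed 10 members changed, 9 lower and Apom higher (Apom 0.87 ± 0.14, Apoa2 -1.32 ± 0.12), with 53.9% of all genes called. Apoe lost that call without DN:HOM animal 9, and over 48 livers 7 members passed. Scaled by library size alone 5 passed, and Apoa1 (-0.10), Apoa5 (-0.05), Apob (-0.02), Apoc2 (-0.33) and Apoe (-0.36) did not.

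The second question was whether loss of the receptor had the same effect. In KO:HOM against KO:WT, 4 of 10 members fell (Apoa1, Apoa2, Apoa4 and Apoc3) and 0 rose, against 19.4% of all genes called, 7.87% lower and 11.5% higher. None of the 4 had groups without overlap, and 2.54% of all genes did. Over 48 livers Apoa1 alone passed and 12.9% of all genes did. The change of Apoa2, for example, was -0.37 in both fits, with an SE of 0.12 over 46 livers and 0.19 over 48. Apoa1 was 4340 to 6432 CPM in KO:HOM and 5533 to 11432 in KO:WT, a change of -0.63 ± 0.12 (adjusted p = 0.00021), close in size to that in DN:HOM. Apoa2 was 4002 to 5290 against 4547 to 6863 CPM (-0.37 ± 0.12, adjusted p = 0.016), and its call was lost under library size alone (-0.26, adjusted p = 0.057), which left 3 members called.

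Apoc3 was 1144 to 1673 CPM in KO:HOM against 1507 to 2033 in KO:WT, a change of -0.33 ± 0.09 (adjusted p = 0.0061). Apoa4 was 393 to 1518 CPM in KO:HOM and 673 to 7136 in KO:WT, where the highest, animal 23 at 7136, stood above the next at 2764. Its change of -1.25 ± 0.39 (adjusted p = 0.018) became -0.68 (adjusted p = 0.16) without that animal, so the call rests on it. The remaining members gave 0.09 ± 0.09 for Apob, -0.06 ± 0.11 for Apoa5, -0.07 ± 0.13 for Apom, -0.22 ± 0.11 for Apoc1, -0.16 ± 0.21 for Apoc2 and 0.26 ± 0.28 for Apoe, none called. Hepatocyte markers summed to 57186 to 77789 CPM in KO:HOM and 77288 to 100225 in KO:WT, which overlap at their ends. Without Alb (-0.43 ± 0.12, edgeR adjusted p = 0.0059) they summed to 24465 to 27739 and 20804 to 36538, which also overlap. Macrophage markers summed to 319 to 1219 and 144 to 333 CPM. Of the 9 hepatocyte markers 4 fell and Hpx rose by 0.57 ± 0.16, and of the 12 macrophage markers 6 rose and 2 fell. The 8 lymphocyte markers summed to 7.06 to 25.1 CPM in KO:HOM and 1.53 to 14.1 in KO:WT, and 5 of them rose; the 8 stellate cell markers summed to 265 to 510 and 174 to 414 CPM, and 5 rose. Of 6 cholangiocyte markers 1 rose, Spp1 (1.42, edgeR adjusted p = 0.0047), which is also among the macrophage markers. Of 6 endothelial markers 1 rose. Over 48 livers 0 of the hepatocyte markers passed in edgeR (7 at an unadjusted p under 0.05), 4 macrophage markers rose and 1 fell, 5 lymphocyte and 2 stellate cell markers rose, and 0 cholangiocyte and 1 endothelial marker rose. The part of these shifts was not tested. Against KO:HET, 3 members fell (Apoa1, Apoc1 and Apoc3) with 10.6% of all genes called; over 48 livers 0 passed, with 2 at an unadjusted p under 0.05. Apoc1, with an adjusted p of 0.047, lost its call under 25 of the 46 single omissions. Apoa1 lost its call without KO:HET animal 3 or 15 or KO:HOM animal 17, and without animal 3 or 17 only 1 member passed. Among the other alternatives, Apoa1 also lost it with the knockout study fitted alone (-0.41, edgeR adjusted p = 0.078). Apoc1 lost it under upper-quartile scaling (edgeR adjusted p = 0.069) and with no low-count filter (edgeR adjusted p = 0.091).

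Both effects were compared directly, as the difference of the DN:HOM and KO:HOM changes. For 7 members the difference passed, against 34.7% of all genes (3 of 10 and 10.5% over 48 livers). The knock-in change was the lower for Apoa2 (-1.13 ± 0.17 on the log2 scale, adjusted p = 9.1e-07), Apoc1 (-0.97 ± 0.16), Apoc3 (-0.84 ± 0.13), Apoe (-1.15 ± 0.41), Apoa5 (-0.62 ± 0.16) and Apob (-0.43 ± 0.14), and the higher for Apom (0.94 ± 0.19). Over 48 livers the 3 were Apoc1, Apoc3 and Apom. Under library size alone 4 of them passed, 3 lower and 1 higher. Apoa1 differed by 0.03 ± 0.18, with an interval of -0.33 to 0.39, and Apoa4 by -1.26 ± 0.56 (adjusted p = 0.076), which passed without DN:WT animal 5 or KO:WT animal 23 (-1.83, adjusted p = 0.0036 without the latter). The mice of the 2 studies came from different colonies, so colony and allele cannot be told apart here.

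The colonies' wild-type livers also differed. In KO:WT against DN:WT, 3 members passed against 12% of all genes. Apoa5 was higher in KO:WT, 1257 to 1969 against 765 to 1288 CPM (0.61 ± 0.11, adjusted p = 0.00015; 0.69 ± 0.14 over 48 livers), and Apom was higher by 0.47 ± 0.14 (adjusted p = 0.017). Over 48 livers Apoa5 alone passed. Apom lost the call without DN:WT animal 2 or animal 7 (adjusted p = 0.053 and 0.052), and Apoe, at -0.89 ± 0.29 (adjusted p = 0.038), lost it under 8 of the single-liver omissions, the KO:WT animals 14 and 31 among them.

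Apoe in the knockout study was unevenly spread within each genotype, with gaps that were seen once the values were sorted. Among the KO:WT livers it was 2226 CPM in animal 14 and 2460 in animal 31, 14198, 15089, 15361 and 15365 in animals 5, 33, 34 and 1, and 25089 and 27514 in animals 23 and 32. KO:HET ran 12810, 14539, 14934, 16579, 23602, 26490, 28205 and 31173 CPM, and KO:HOM 12241, 12743, 13713, 15923, 16651, 22058, 23521 and 24037. No knockout-study liver lay between 2460 and 12241 CPM or between 16651 and 22058 CPM, and each of KO:HET and KO:HOM held livers on both sides of the second gap. In KO:WT the highest Apoe value was 12.4 times the lowest, against 1.53 times for Apoc1, the neighbouring gene; Apoa4, with 1 high liver, spanned 10.6 times.

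The neighbours did not follow. In animals 14 and 31 Apoc1 was 3871 and 4710 CPM, within the 3669 to 5612 of the other 6 KO:WT livers. Apoc4 was 218 and 273 CPM there (group 235 ± 35.5, n = 8), Tomm40 47.8 and 44.4 (46.2 ± 3.98) and Clptm1 103 and 95.1 (96.5 ± 6.77). The ratio of Apoe to Apoc1 was 4.53 to 7.83 in all 24 labelled knock-in livers and 0.522 to 6.84 in the 24 knockout-study livers. Without animals 14 and 31, an alternative chosen after their values were seen, the KO:HOM change of Apoe was -0.09 ± 0.18 (adjusted p = 0.80), the same 4 members passed in KO:HOM against KO:WT, and Apoa5 remained the 1 called in KO:WT against DN:WT. The cause of the spread was not tested.

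**Figure D3:**
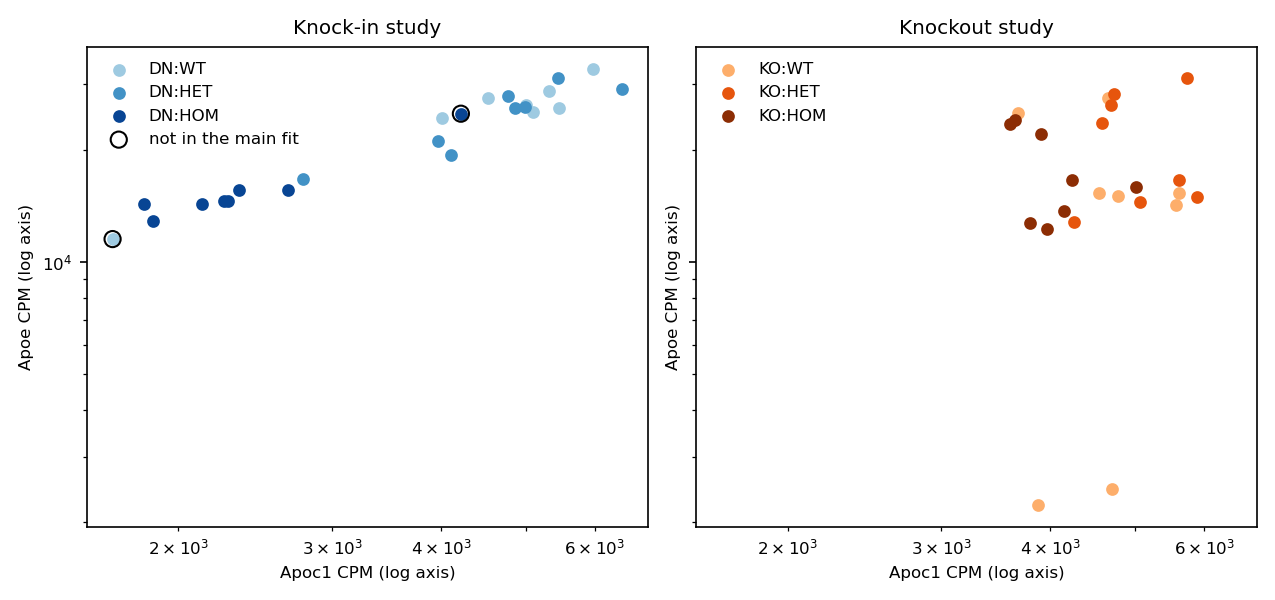
Apoe against its neighbour Apoc1 in CPM (log axes), 1 point per liver, for the knock-in study (left) and the knockout study (right), with the 2 livers outside the fit ringed. Knock-in livers lie along a single band, and in the knockout study Apoe takes values from 2226 to 31173 at Apoc1 levels of 3597 to 5886.

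Patterns like those of the members were sought over the 6 group means of log2 CPM for members whose means spanned more than 1, by the root mean square difference after centring. Apoa4 (span 2.35) was nearest to its antisense gene Gm10680 (0.024), then D130043K22Rik (0.059) and Gm47528 (0.111). Apoc3 was nearest to Rmnd5a (0.024), Ebp (0.039), a sterol isomerase, and Ftcd (0.052). Apoa2 was nearest to Magix and Pstpip2 (0.041 each). Apoc1 was nearest to Cd300lg (0.034), Gfm1 (0.046) and Gm12354 (0.049), and Apoa5 to its antisense gene Gm47544 (0.039), Errfi1 (0.069) and Gm45838 (0.077). The antisense genes share exonic bases with their members, and for each liver the gene-strand counts were 6.97 to 8.62 times the opposite-strand counts; whether wrong-strand reads of a member were counted for its antisense gene was not tested, so these likenesses are not independent of the member. Apoe had no gene as near, with Gm19619 at 0.17, Slc17a4 at 0.204 and Otub2 at 0.205.

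The counts of the rest of the lipoprotein pathway in DN:HOM against DN:WT are to be read against the 59.1% of all genes called, 30% lower and 29.1% higher. Of the 8 tested genes of other apolipoproteins, 5 fell and 1 rose: Apoc4 (-0.60 ± 0.12), Apoh (-0.63 ± 0.08), Apon (-0.61 ± 0.08), Saa4 and Apof fell, and Clu, a stress-induced chaperone that also travels on high density lipoprotein, rose by 1.20 ± 0.10. Of 10 genes of assembly and APOB mRNA editing, 7 fell and 1 rose. Mttp, which loads lipid onto Apob, fell from 430 ± 45.1 to 205 ± 26.7 CPM (-1.05 ± 0.10, adjusted p = 1.2e-11; -0.80 ± 0.14 over 48 livers), and Sar1b, which drives the export of the particle from the endoplasmic reticulum, by 1.01 ± 0.10. Apobec1, the editing enzyme that yields Apob48, rose by 1.19 ± 0.20 while its cofactor A1cf fell by 1.44 ± 0.16.

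Of 12 processing enzymes and inhibitors 9 fell and 1 rose. Pltp, a phospholipid transfer protein, fell by 1.87 ± 0.23, and Lpl, the lipase of triglyceride-rich particles, rose by 1.87 ± 0.38. Of 11 receptors and their regulators 5 fell and 3 rose, with Lrp1, a receptor for remnant particles, at -0.40 ± 0.09 and Lsr, a lipolysis-stimulated receptor, at 0.74 ± 0.08. Of 17 regulators of these genes 12 fell and none rose, among them Srebf1 (-3.18 ± 0.21), Ppara (-1.47 ± 0.17) and Mlxipl (-1.33 ± 0.12), while Hnf4a gave -0.15 ± 0.11 (adjusted p = 0.26). Over 48 livers these changes were smaller: -1.28 ± 0.30 for Pltp, 1.23 ± 0.41 for Lpl, -2.13 ± 0.37 for Srebf1, -1.07 ± 0.22 for Ppara, -1.02 ± 0.17 for Mlxipl, -0.74 ± 0.14 for Sar1b, 0.76 ± 0.23 for Apobec1, -0.99 ± 0.22 for A1cf, 0.87 ± 0.15 for Clu, -0.50 ± 0.12 for Apoc4, -0.46 ± 0.10 for Apoh, -0.48 ± 0.09 for Apon, -0.30 ± 0.09 for Lrp1, 0.54 ± 0.11 for Lsr and -0.10 ± 0.11 for Hnf4a. The counts lower and higher were then 5 and 1 of other apolipoproteins, 7 and 1 of assembly genes, 8 and 1 of processing genes, 5 and 3 of receptors, and 9 and 0 of regulators. Under library size alone 8 of these falls changed sign, those of Apof, Mia3, P4hb, Tm6sf2, Gpld1, Abca1, Lrp1 and Rora. Relative to the median of all genes, which that scaling moves by 0.43, those 8 were between -0.40 and -0.25. The lists also became less one-sided under that scaling. Lower and higher were 2 and 2 of other apolipoproteins, 4 and 3 of assembly genes and 6 and 1 of processing genes. Receptors gave 2 and 6, and regulators 5 and 5.

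In KO:HOM against KO:WT, where 19.4% of all genes were called, the same lists held 0 higher and 1 lower of 8 other apolipoproteins, 1 higher and 2 lower of 10 assembly genes, 0 and 3 of 12 processing genes, 2 and 2 of 11 receptors, and 0 and 7 of 17 regulators. Over 48 livers these were 0 and 0 (1 at an unadjusted p under 0.05 in edgeR), 1 and 0, 0 and 2, 2 and 1, and 0 and 3. Under library size alone they were 1 and 0, 1 and 0, 1 and 2, 4 and 2, and 0 and 2. Apobec1 rose by 0.86 ± 0.19 (adjusted p = 0.0011), Mttp changed by -0.32 ± 0.10 (adjusted p = 0.013; adjusted p = 0.12 over 48 livers) and Pltp by -1.90 ± 0.22 (adjusted p = 6.2e-08). The difference between the alleles was 0.03 ± 0.32 for Pltp and -0.73 ± 0.14 (adjusted p = 6.8e-05) for Mttp, and over 48 livers 0.62 ± 0.41 (adjusted p = 0.34) and -0.48 ± 0.19 (adjusted p = 0.098). Among 8 neighbours of the Apoa1 cluster 3 rose and 3 fell in DN:HOM (3 and 3 over 48 livers), and among 11 neighbours of the Apoe cluster 6 rose and 2 fell (5 and 2 over 48 livers), again beside 59.1% of all genes called. The 3 falls by the Apoa1 cluster (Pcsk7, Sidt2 and Sik3) and that of Tomm40 changed sign under library size alone, and were between -0.39 and -0.32 relative to its median. Under that scaling 3 rose and 0 fell by the Apoa1 cluster, and 8 rose and 0 fell by the Apoe cluster.

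**Figure D4:**
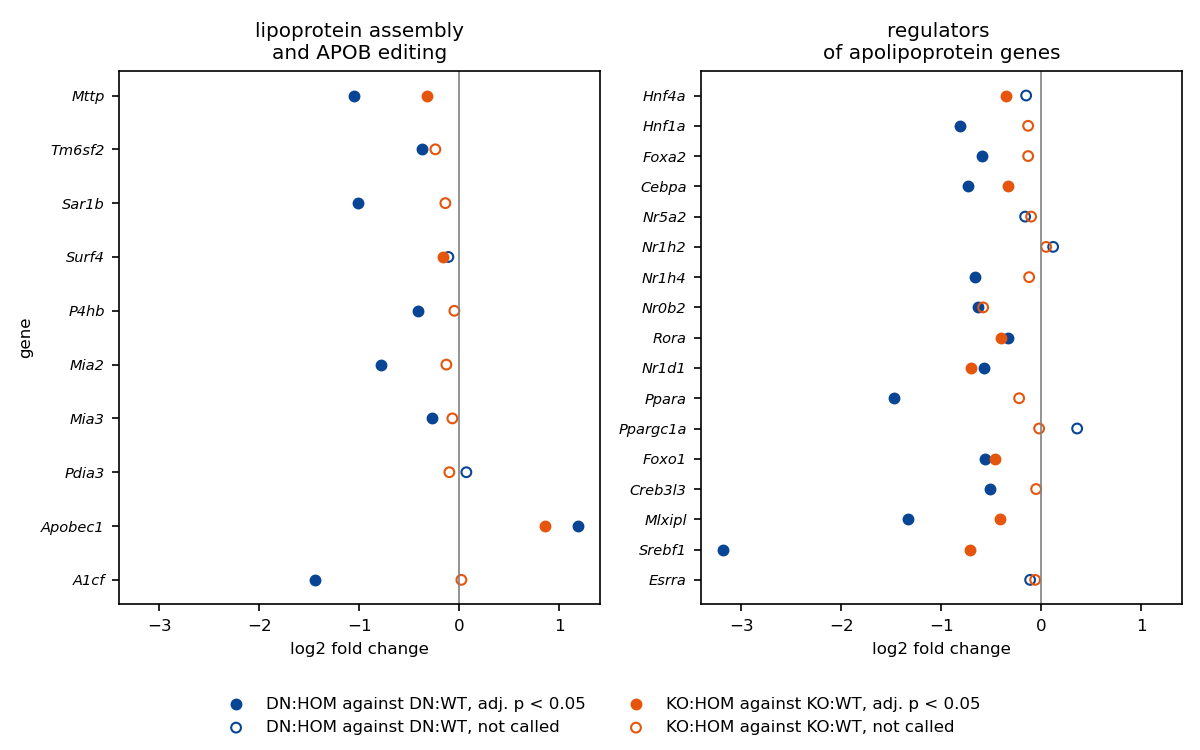
Log2 fold change of homozygous against wild-type livers for the genes of lipoprotein assembly and APOB editing and the regulators of apolipoprotein genes, in the knock-in study (blue) and the knockout study (orange). Filled points passed an adjusted p of 0.05, with Srebf1 at -3.18 the furthest of the blue points.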

How the data were processed

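Total liver RNA of 48 mice was sequenced as stranded mRNA libraries, and the authors deposited, per liver, raw read counts per gene from STAR 2.5.0a on GRCm39 (Ensembl release 104, per the methods); the authors used DESeq2 for their own tests. Column 4, the counts of the gene's strand, was used as deposited. Reads assigned to no gene were 24.0% to 35.0% and left out. They were 25.5% to 34.3% in the labelled DN:WT livers and 24.6% to 27.0% in the labelled DN:HOM livers. The part of this difference in the changes was not tested. Gene symbols came from GENCODE M39 (54749 of 55416 identifiers). Depth was 5332897 to 16961379 reads per liver, which limits Apoc2 most. Here edgeR 4.0.16 (filterByExpr, TMM, quasi-likelihood test over 6 groups, 46 livers; adjusted p by Benjamini-Hochberg, threshold 0.05) was run in R 4.3.3; CPM use TMM-scaled library sizes. DESeq2 1.42.0 was an alternative. Tested on simulated counts for DN:HOM against DN:WT (15248 genes), the test called 69% of genes changed by 1 log2 unit and 98% changed by 2, with 7 unchanged genes called. The simulation changed only a small part of the genes, as many up as down, whereas 59.1% were called in the data. The rates in the real contrast can therefore differ from these.

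The numbers in the sample titles name animals and share none between genotypes of a study. The labels do not state that livers come from separate litters, so p-values measure the spread between these mice. The members and lists were chosen with earlier results of these data known. Genes named are Nr1h3, the members, genes of the lists, annotated genes overlapping a member and, for members whose group means span over 1 log2 unit, the 3 genes of nearest pattern; some of these genes are not reported here. The 2 livers set aside are absent from the study's per-animal source data, whose 22 knock-in rows each matched another liver of the labelled group within 1 read over 6 genes.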

Additional observations from a re-analysis of the deposited data

Results flagged for a closer look

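Among 60 groups of 8 labelled livers (10 members in 6 groups) 12 values, from 4 livers, were far from the rest by Dixon's gap test. The test was made on log values at its 95% critical value, which chance passes in about 1 in 20 groups. It measures the gap of the outermost value from the next. Livers that lie low together, as KO:WT animals 14 and 31 do in Apoe, are therefore not flagged. DN:WT animal 10 stood low in Apoa2 (2258 CPM, the others 5595 to 8531), Apoc1 (1682 CPM), Apoc3 (899 CPM) and Apoe (11525 CPM). DN:HOM animal 12 stood high in Apoa2 (6306 CPM), Apoa4 (2698 CPM, the others 312 to 478), Apoc1 (4215 CPM), Apoc3 (1541 CPM) and Apoe (25029 CPM), and low in Apom (60.4 CPM, the others 108 to 134). These are the 2 livers outside the fit. The remaining flags were Apoa2 in KO:HET animal 9 (3750 CPM, the others 5159 to 6766) and Apoc2 in DN:WT animal 5 (11.1 CPM).

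The knock-in and knockout effects differed by the interaction test for Apoa2 (-1.13), Apoa5 (-0.62), Apob (-0.43), Apoc1 (-0.97), Apoc3 (-0.84), Apoe (-1.15) and Apom (0.94), as log2 differences of the knock-in minus the knockout change. Without KO:WT animals 14 and 31 the value of Apoe was -0.82.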

How the results depend on the processing

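Each comparison was repeated under 10 alternatives (1 of them, without KO:WT animals 14 and 31, chosen after seeing the data; fitting each study alone gives no value for KO:WT against DN:WT or the difference of the homozygous effects) and with each of 46 livers left out. Over all 48 livers the members called moved to 1 in KO:HOM against KO:WT, to 0 in KO:HOM against KO:HET, to 1 in KO:WT against DN:WT and to 3 for the difference of the homozygous effects. Scaled by library size alone they were 6 in DN:HOM against DN:WT, where Apob reversed to 0.09, 3 in KO:HOM against KO:WT, 5 in DN:HOM against DN:HET, 1 in KO:HOM against KO:HET and 4 for the difference. KO:HOM against KO:HET had 1 without the livers under 10000000 reads, and KO:WT against DN:WT 1 without KO:WT animals 14 and 31. With unstranded counts the summed share was 4.15% in DN:HOM and 5.67% in DN:WT, against 3.84% and 5.37% on the gene strand. Leaving out 1 liver gave 9 to 10 members in DN:HOM against DN:WT, 3 to 4 in KO:HOM against KO:WT, 0 to 0 in each heterozygote against wild-type, 9 to 10 in DN:HOM against DN:HET, 1 to 4 in KO:HOM against KO:HET (1 without KO:HET animal 3 or KO:HOM animal 17), 1 to 3 in KO:WT against DN:WT (1 without DN:WT animal 2 or 7) and 7 to 8 for the difference. The cause of these moves was not tested. No paired analysis was possible because the animal numbers in the labels are not shared between genotypes of a study. Among the members' single values under the alternatives 722 kept their direction and call, 40 lost the call, 1 called value reversed, and 17 changed sign while called under neither setting.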

Other observations

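Beyond the comparisons above, the acute-phase apolipoprotein Saa1 was 50.2 to 541 CPM in DN:WT, 77.4 to 1089 in DN:HET and 225 to 418 in DN:HOM, and its change in DN:HOM was 1.06 ± 0.62 (adjusted p = 0.14). The methods of the study set some wild-type mice of the knockout study aside as outliers in serum cholesterol without naming the animals, and whether the livers of KO:WT animals 14 and 31 are among them was not tested.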
